A study of Mus musculus with 16 samples.

Results

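Cardinal is a long noncoding RNA whose gene lies beside Myocd, the gene of the cardiac coactivator myocardin. Earlier work that the study cites connects it to SRF, the DNA-binding factor that myocardin serves. The study itself connects Cardinal to DRG1, a GTPase that helps ribosomes through difficult stretches of mRNA. A list of 7 genes out of the 55573 in the count table was followed here: Cardinal itself (listed under its mouse name Gm12295), Myocd, Srf, Drg1, its paralog Drg2, Zc3h15, which encodes the DRG1 partner DFRP1, and Rwdd1, which encodes the DRG2 partner DFRP2. The genes were chosen by name, and each was matched by its Ensembl identifier. They are the RNA, its neighbor, and the partners that the study or the work it cites links to it, with their homologs. All 7 were among the 16857 genes that passed the filter on low counts.

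Poly(A)-selected RNA from the apex of the heart was sequenced in 16 mice, with 4 mice in each of 4 groups. The groups were AAV9-cTNT-GFP sham, AAV9-cTNT-GFP TAC, AAV9-cTNT-CARDINAL sham and AAV9-cTNT-CARDINAL TAC, called AAV9-GFP and AAV9-Cardinal below. All mice were wild-type males that had received an adeno-associated virus under the skin on postnatal day 1, and all later underwent chest surgery, with tissue taken 4 weeks after it. TAC, transverse aortic constriction, ties the aorta against a needle so that the left ventricle pumps against a raised pressure, and sham surgery leaves out the tie. The viral insert was driven by the chicken cardiac troponin T promoter and was therefore aimed at cardiomyocytes. It was the full-length mouse Cardinal, so reads from the vector and from the mouse gene could not be told apart. The labels do not say whether the mice of a group came from separate litters. Each library held between 16441997 and 21904589 counted reads. The cardiomyocyte genes Tnnt2, Ryr2, Myh6 and Ttn were abundant in all 4 groups. Of 5 listed skeletal muscle genes, Myh4 and Tnnc2 were at 0 in every heart, whereas Ckm, Acta1 and Tnnt3 were detected. Group means ran from 990 to 1099 CPM for Ckm and from 118 to 2324 CPM for Acta1. Tnnt3 had a mean of 0.024 CPM in AAV9-GFP sham, 0.354 CPM in AAV9-GFP TAC and 0 in both AAV9-Cardinal groups. Nppa and Acta1, which pressure overload is known to raise, rose with TAC under both viruses (by 3.58 and 4.22 in log2 units in AAV9-GFP hearts and by 1.92 and 2.86 in AAV9-Cardinal hearts), whereas Myh7 was 0.074 and 0.014 higher in log2 units and did not pass the test.

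SRF binds CArG boxes, short AT-rich elements flanked by CC and GG, in the promoters of cytoskeletal, contractile and immediate early genes. Myocardin binds SRF and raises its activity in cardiac and smooth muscle, and the myocardin-related factors and the ternary complex factors compete for the same SRF surface. DRG1 and DRG2 belong to a conserved GTPase family. Each is stabilized by its own DFRP partner, DFRP1 for DRG1 and chiefly DFRP2 for DRG2, and the complexes associate with translating ribosomes. Stabilization of this kind acts on the protein, which RNA-Seq does not measure.

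Gm12295 (ENSMUSG00000085162) is a lincRNA gene with 2 annotated transcripts at chr11:65277654-65365798 on the minus strand of GRCm38. Myocd (ENSMUSG00000020542) lies on the same strand at chr11:65176561-65269989, and 7664 bases separate the 2 genes. Drg1 (chr11:3187360-3266415, minus strand) and Drg2 (chr11:60454591-60468754, plus strand) are on the same chromosome, and Srf is at chr17:46548329-46556175 on the minus strand. Zc3h15 is at chr2:83644435-83664622 on the plus strand and Rwdd1 at chr10:33996555-34019624 on the minus strand.

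Promoter sequence from RefSeq (GRCm38.p6, from 250 bases before to 50 bases after a gene's start) was available for 4 of the 7 genes, namely Gm12295, Srf, Drg2 and Zc3h15. The windows of Gm12295 and Srf are shown because these 2 genes belong to the SRF axis and the remaining results turn on transcript levels. The first covers chr11:65287784-65288083 (minus strand, 300 bases, with the GGAAA core of NFAT sites in capitals, as TTTCC where it is on the other strand), and the second chr17:46556176-46556412 (minus strand, 237 bases up to the start of the GENCODE gene, CArG boxes in capitals):
Gm12295: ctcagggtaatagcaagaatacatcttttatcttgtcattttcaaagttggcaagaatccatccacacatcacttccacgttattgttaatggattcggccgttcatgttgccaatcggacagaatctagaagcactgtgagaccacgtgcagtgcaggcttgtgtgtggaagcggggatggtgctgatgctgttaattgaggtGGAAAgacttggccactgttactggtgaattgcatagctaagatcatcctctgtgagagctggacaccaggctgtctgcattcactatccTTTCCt
Srf: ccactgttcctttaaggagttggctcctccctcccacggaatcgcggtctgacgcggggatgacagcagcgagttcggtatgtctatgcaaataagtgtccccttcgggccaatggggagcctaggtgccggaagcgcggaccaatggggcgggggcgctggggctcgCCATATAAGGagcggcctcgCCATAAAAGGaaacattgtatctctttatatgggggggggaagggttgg

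The Srf window held 2 CArG boxes, an element present in 1.63% of the 32851 promoters of the same length, and no CArG box was found in the windows of Gm12295, Drg2 or Zc3h15. No MEF2 site, present in 3.19% of promoters, was found in any of the 4 windows. The GGAAA core, searched on both strands, occurred 2 times each in the windows of Gm12295 and Zc3h15, 1 time in that of Srf, where it overlaps the second CArG box, and in 61.3% of all promoters. The Gm12295 window spans the RefSeq start of the gene, which lies inside the longer GENCODE gene, whose own start is at chr11:65365798. For Cardinal the study reports predicted MEF2 and NFAT sites in conserved promoter regions, and MEF2A binding by ChIP-Seq. Whether this window covers those regions was not tested. A match, or its absence, describes these letters only.

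Levels of different genes were compared per length, as CPM per kilobase of exon. CPM is the count of a gene relative to the normalized size of its library. In AAV9-GFP sham hearts this level was 19.0 ± 2.73 for Srf and 17.4 ± 0.727 for Rwdd1, then 8.03 ± 1.10 for Myocd, 7.95 ± 0.660 for Zc3h15, 6.64 ± 0.290 for Drg1, 5.50 ± 0.439 for Drg2 and 1.33 ± 0.287 for Gm12295 (SD, n = 4 each). Srf and Rwdd1 overlapped within 1 SD, as did Myocd and Zc3h15, whereas Drg1 and Drg2 were more than 1 SD apart. In AAV9-Cardinal sham hearts Gm12295 stood at 8.65 ± 1.74 CPM per kilobase (SD, n = 4), next to Myocd at 8.32 ± 1.61. These per-length values rest on the whole exon length of each gene, and the reads of Rwdd1 and Zc3h15 were in part shared with other genes. Of the 50-base stretches of Rwdd1, 40.7% also occur in Gm12693, Gm13743 or Gm48045, and 19.4% of those of Zc3h15 occur in the processed pseudogene Gm5909, so both levels are uncertain. The share was 4.57% for Drg1, 2.07% for Drg2, and 0% for Gm12295 and Srf.

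**Figure D1:**
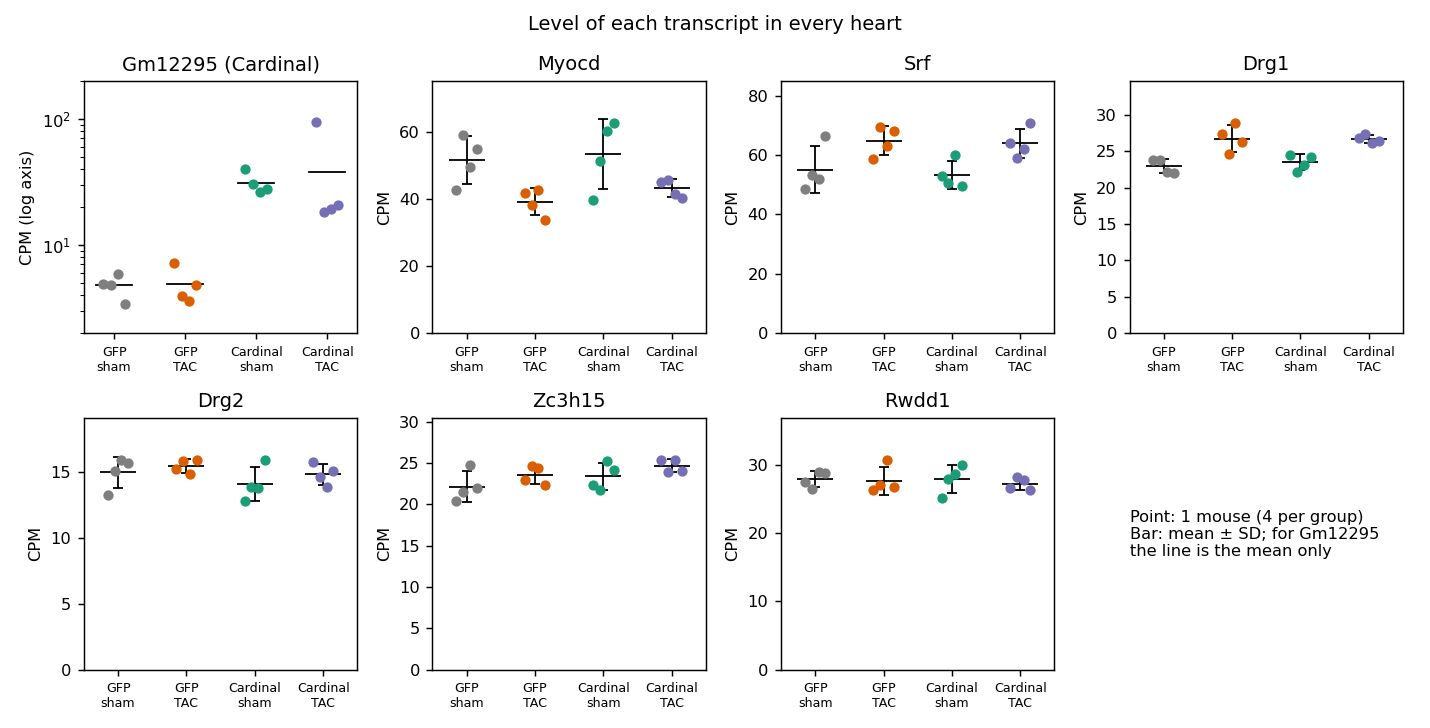
Each panel plots 1 of the 7 transcripts in CPM against the 4 groups, with a point for each mouse and, except for Gm12295, bars for the mean and SD (n = 4). Gm12295 has a log axis and a line at the mean: all AAV9-Cardinal hearts lie above all AAV9-GFP hearts, and AAV9-Cardinal TAC replicate 1 is at 93.9 CPM. Drg1 is higher after TAC under both viruses, without overlap with sham.

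Cardinal was the gene that the virus was built to raise, and it was higher in every AAV9-Cardinal heart than in any AAV9-GFP heart. In AAV9-GFP sham hearts Gm12295 was at 4.92, 4.80, 5.93 and 3.42 CPM, from 70 to 121 counts per mouse, and in AAV9-GFP TAC hearts at 7.24, 3.90, 3.59 and 4.78 CPM. In AAV9-Cardinal sham hearts it was at 40.0, 30.2, 26.2 and 27.6 CPM, and in AAV9-Cardinal TAC hearts at 93.9, 18.3, 19.5 and 20.6 CPM. The 2 AAV9-GFP groups overlapped, and 3 of the 4 AAV9-Cardinal TAC mice lay below every AAV9-Cardinal sham mouse while the fourth lay above them all. Averaged over both surgeries, Gm12295 was 7.12-fold higher with AAV9-Cardinal (log2 fold change 2.83, standard error 0.35, adjusted p = 0.0061 by the quasi-likelihood test of edgeR). It was 1 of 7 members called there, where 0.0119% of all tested genes were called, and it had the smallest p of the table. Gm12295 was also the 1 member called in TAC hearts (background 0.101%), and no member was called in sham hearts, where 0.0119% of genes were. The background in TAC hearts depended on the fit: 17 genes were called in the main fit, 428 with DESeq2 and 535 without AAV9-Cardinal TAC replicate 1. The groups did not overlap in either comparison, as for 2.36% of genes in sham hearts and 6.77% in TAC hearts (exact two-sided permutation p = 0.029 in each, the smallest that 4 mice against 4 allow, and 0.16 after adjustment over the 28 tests of the members). Without AAV9-Cardinal TAC replicate 1, the averaged log2 fold change was 2.35 (edgeR adjusted p = 3.4e-06), that in TAC hearts was 2.00 (edgeR adjusted p = 2.8e-04), and the one in sham hearts was 2.70 and was called (edgeR adjusted p = 4.2e-05). The call in TAC hearts was lost with no filter on low counts (0.072), with only the mice compared (0.23), and without any single mouse other than AAV9-Cardinal TAC replicate 1, AAV9-GFP sham replicate 4 and AAV9-GFP TAC replicates 1 and 4 (edgeR adjusted p up to 0.17), whereas with only the mice compared the sham difference was called (edgeR adjusted p = 0.0010). The spread of Gm12295 between mice of a group, a biological coefficient of variation of 0.43 fitted over all 4 groups, was 3 or more times that of any other member, which lay between 0.054 and 0.13. Group by group, the SD of its CPM was 97.9% of the mean in AAV9-Cardinal TAC hearts, which include replicate 1, and 20.2% to 33.9% in the other groups. In AAV9-Cardinal sham hearts it was 20.2%, next to 19.4% for Myocd.

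Virus and surgery were also set side by side for the response of Cardinal to pressure overload. In AAV9-GFP hearts, which carried no Cardinal vector, the log2 fold change of Gm12295 was 0.033 (95% interval from -1.12 to 1.19, edgeR adjusted p = 0.98). In AAV9-Cardinal hearts, where reads of vector and mouse gene are mixed, it was 0.30 (-0.64 to 1.23, edgeR adjusted p = 0.76). Averaged over both viruses, and so over both sources of reads, it was 0.16 (-0.58 to 0.91, intervals not adjusted for the number of genes). The response did not differ detectably between the viruses (difference 0.26, standard error 0.68, edgeR adjusted p = 0.93). These intervals are wide. Without AAV9-Cardinal TAC replicate 1 the averaged change was -0.32 (edgeR adjusted p = 0.14) and that in AAV9-Cardinal hearts was -0.67 (edgeR adjusted p = 0.052). The positive direction of both edgeR values rested on that heart. As a difference of mean log2 CPM, the change in AAV9-Cardinal hearts was -0.085 even with that heart included.

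The genes around Cardinal were read to see whether they moved with the virus or with surgery. GENCODE lists 18 other genes within a megabase on either side, of which 17 were in the count table and 7 passed the filter: Hs3st3a1, Gm12291, Elac2, Arhgap44, Myocd, Map2k4 and Zkscan6. None of them passed the test between the viruses. Few genes did: 0.0119% of all tested genes in sham hearts, 0.101% in TAC hearts and 0.0119% averaged over both. Their median log2 fold change averaged over both surgeries was 0.0010, next to -0.0011 over all tested genes, and the single values ran from -0.17 for Hs3st3a1 to 0.095 for Myocd. For Map2k4, a kinase of the stress-activated MAPK cascade and the nearest tested gene on the far side, the log2 fold change was 0.0010 (95% interval from -0.072 to 0.074). With TAC averaged over both viruses, 1 of the 7, Myocd, was lower and none was higher, where 11.8% of all tested genes were called lower.

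**Figure D2:**
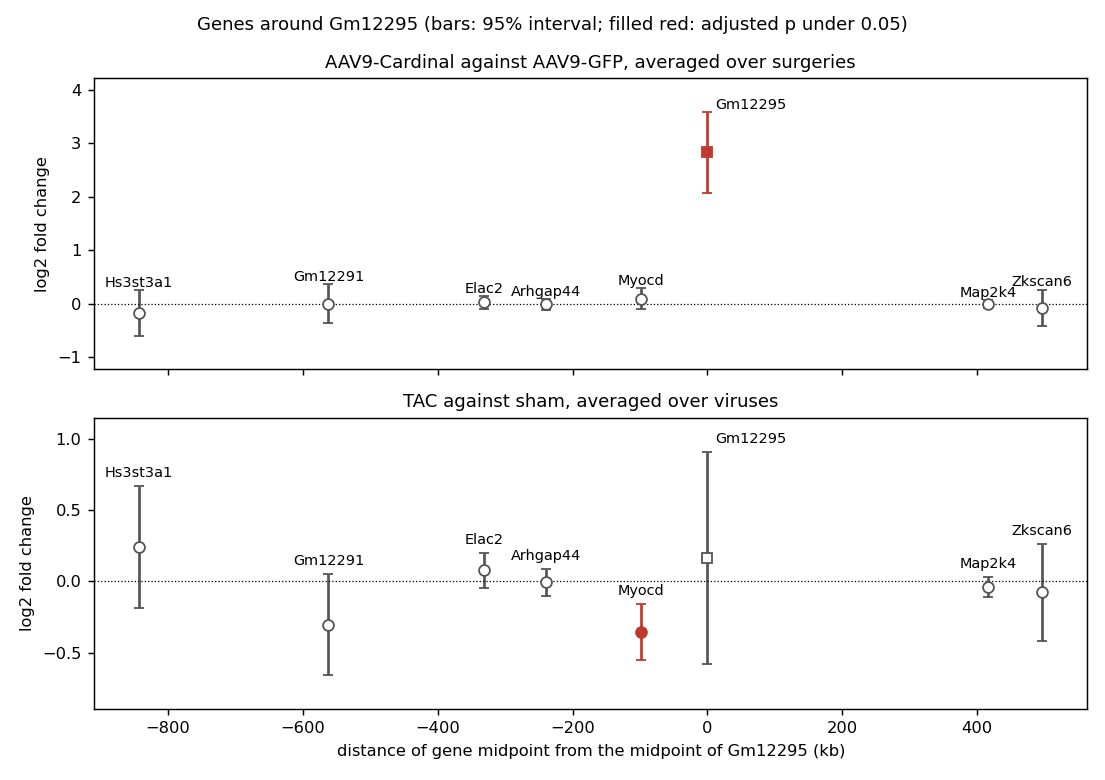
The 7 tested neighbors (circles) and Gm12295 (square) are placed by the distance in kilobases between gene midpoints, with log2 fold changes and their 95% intervals for the viruses (upper panel) and for TAC (lower panel, another scale). Filled red marks an adjusted p under 0.05: Gm12295 between the viruses and Myocd between TAC and sham.

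Myocd was lower after TAC. In AAV9-GFP hearts it fell from 42.7, 59.1, 49.6 and 54.9 CPM after sham surgery to 41.8, 38.3, 42.5 and 33.7 CPM after TAC. Every AAV9-GFP TAC heart lay below every AAV9-GFP sham heart, although the highest TAC value of 42.5 CPM was only just under the lowest sham value of 42.7 CPM; the groups of 20.3% of tested genes did not overlap in this comparison. The log2 fold change was -0.40 (standard error 0.13) and passed the test (edgeR adjusted p = 0.043), and the exact permutation p was 0.029. This call was near the threshold: it held without AAV9-GFP sham replicate 1, AAV9-GFP TAC replicate 4 or AAV9-Cardinal sham replicate 1, 3 or 4, was lost without any other single mouse (adjusted p up to 0.13 in edgeR), and was also lost with no filter on low counts (0.066). In AAV9-Cardinal hearts Myocd was at 39.7, 51.3, 60.1 and 62.6 CPM after sham surgery and at 45.1, 45.7, 41.5 and 40.2 CPM after TAC. These groups overlapped, because AAV9-Cardinal sham replicate 1 was the lowest of all 8 hearts. The log2 fold change was -0.31 (standard error 0.13, edgeR adjusted p = 0.17), and it was -0.43 and called without AAV9-Cardinal sham replicate 1 (edgeR adjusted p = 0.047). Averaged over both viruses, Myocd was 0.783-fold its sham level after TAC (log2 fold change -0.35, standard error 0.091, edgeR adjusted p = 0.011), and that call held with each mouse left out in turn, with changes from -0.41 to -0.31. Between the viruses Myocd differed by 0.048 in sham hearts (95% interval from -0.23 to 0.33) and by 0.14 in TAC hearts (-0.14 to 0.42), and neither difference passed the test.

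Myocd is known to be expressed in cardiomyocytes and smooth muscle cells, so markers of both were read for TAC against sham. In bulk tissue, fewer cells of a type and less RNA per cell cannot be told apart. The summed level of 7 cardiomyocyte markers, all detected, was 37557 to 38900 CPM in AAV9-GFP sham hearts and 27544 to 33350 CPM in AAV9-GFP TAC hearts, and 5 of the 7 were lower. Myh6 alone had a mean of 19200 CPM in AAV9-GFP sham hearts. In AAV9-Cardinal hearts the sum was 36287 to 40351 CPM after sham surgery and 33876 to 36820 CPM after TAC, and 1 of the 7 was lower and 1 higher. The sum of 5 smooth muscle markers, all detected, was 207 to 397 CPM against 173 to 200 CPM in AAV9-GFP hearts and 207 to 239 CPM against 169 to 199 CPM in AAV9-Cardinal hearts. In AAV9-GFP hearts 1 of these 5 was higher and 1 lower, and in AAV9-Cardinal hearts 1 was lower. Fibroblast markers, 6 in number and all detected, summed to 421 to 475 CPM in AAV9-GFP sham hearts and 667 to 877 CPM in AAV9-GFP TAC hearts, with 3 of 6 higher. In AAV9-Cardinal hearts the fibroblast sum was 409 to 451 CPM after sham surgery and 424 to 682 CPM after TAC, with 1 of 6 higher. Of all tested genes, 17.4% were called in AAV9-GFP hearts and 6.48% in AAV9-Cardinal hearts, in either direction. The part of these shifts in the levels of Myocd and the other members was not tested.

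Srf was higher after TAC when both viruses were averaged. In AAV9-GFP hearts it was at 48.5, 53.4, 52.0 and 66.5 CPM after sham surgery and at 58.8, 69.5, 63.2 and 68.2 CPM after TAC. In AAV9-Cardinal hearts it was at 53.1, 50.7, 60.1 and 49.6 CPM after sham surgery and at 64.0, 59.1, 62.1 and 70.9 CPM after TAC. The groups overlapped under both viruses, through AAV9-GFP sham replicate 4 in the first and through AAV9-Cardinal sham replicate 3 in the second. Averaged over both viruses, Srf was 1.19-fold higher after TAC (log2 fold change 0.25, standard error 0.066, edgeR adjusted p = 0.013), and this held with each mouse left out in turn, between 0.22 and 0.30. Neither virus alone gave a call, with log2 fold changes of 0.24 (edgeR adjusted p = 0.099) and 0.26 (edgeR adjusted p = 0.11). Without AAV9-GFP sham replicate 4, the first was 0.34 and was called (edgeR adjusted p = 0.012). Between the viruses Srf differed by -0.045 in sham hearts (95% interval from -0.25 to 0.16) and by -0.020 in TAC hearts (-0.22 to 0.18), neither past the threshold.

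The ratio of Srf to Myocd put both shifts into a single value for each heart, given as Srf minus Myocd in log2 CPM. It was 0.18, -0.15, 0.068 and 0.28 in AAV9-GFP sham hearts and 0.49, 0.86, 0.57 and 1.01 in AAV9-GFP TAC hearts. The groups did not overlap, and the means differed by 0.64 (exact two-sided permutation p = 0.029, or 0.19 adjusted over the 20 ratio tests). Without AAV9-GFP sham replicate 2 the difference was 0.56, and the unadjusted permutation p was no longer under 0.05. In AAV9-Cardinal hearts the ratio was 0.42, -0.017, 0 and -0.33 after sham surgery and 0.50, 0.37, 0.58 and 0.81 after TAC. The difference of 0.55 had an exact permutation p of 0.057, and the groups overlapped through the sham heart at 0.42. Between the viruses the ratio differed by -0.078 in sham hearts (exact permutation p = 0.66) and by -0.17 in TAC hearts (exact permutation p = 0.31).

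Of 29 tested SRF target genes, 16 were higher and 2 lower after TAC averaged over both viruses, with a median log2 fold change of 0.25 (0.0042 over all tested genes, of which 23.1% were called in either direction). The list holds Srf itself, and genes well known to respond to overload. Those with the smallest p were Acta1, the skeletal alpha-actin gene (log2 fold change 3.54, standard error 0.18), Des, which encodes desmin (0.40, 0.039), Cfl2, which encodes the muscle cofilin (0.27, 0.029), and Nppa, which encodes atrial natriuretic peptide (2.75, 0.30). In AAV9-GFP hearts 14 were higher and 2 lower (background 17.4% in either direction), and in AAV9-Cardinal hearts 8 were higher and 1 lower (background 6.48%). Between the viruses only Acta1 was called, in TAC hearts, at -1.44 (standard error 0.23, edgeR adjusted p = 0.039). The background was 0.101% in TAC hearts and 0.0119% in sham hearts and averaged. None of the 29 targets differed in TAC response between the viruses at the threshold (background 0.0119%).

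Of 20 tested cofactors and partners of SRF, 3 were higher and 4 lower after TAC averaged over both viruses, with a median log2 fold change of 0.046, where 11.3% of all tested genes were called higher and 11.8% lower. Mef2a and Mef2d, which encode MEF2 factors, fell by 0.44 (standard error 0.064) and 0.21 (0.035) on the log2 scale. Hopx, a homeodomain-only protein that is known to restrain SRF, fell by 0.53 (0.087). Elk3, a ternary complex factor that competes with myocardin for SRF, rose by 0.36 (0.056). The levels of Hopx were 136 ± 18.2 CPM after sham surgery and 77.9 ± 12.3 CPM after TAC in AAV9-GFP hearts, and 130 ± 6.37 and 108 ± 15.4 CPM in AAV9-Cardinal hearts (SD, n = 4 each). Elk3 stood at 21.8 ± 0.648 and 32.1 ± 3.65 CPM in AAV9-GFP hearts and at 23.1 ± 0.947 and 25.8 ± 2.41 CPM in AAV9-Cardinal hearts (SD, n = 4 each). None of the 20 genes differed between the viruses at the threshold. The share of all tested genes called was 0.0119% in sham hearts, 0.101% in TAC hearts and 0.0119% averaged.

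**Figure D3:**
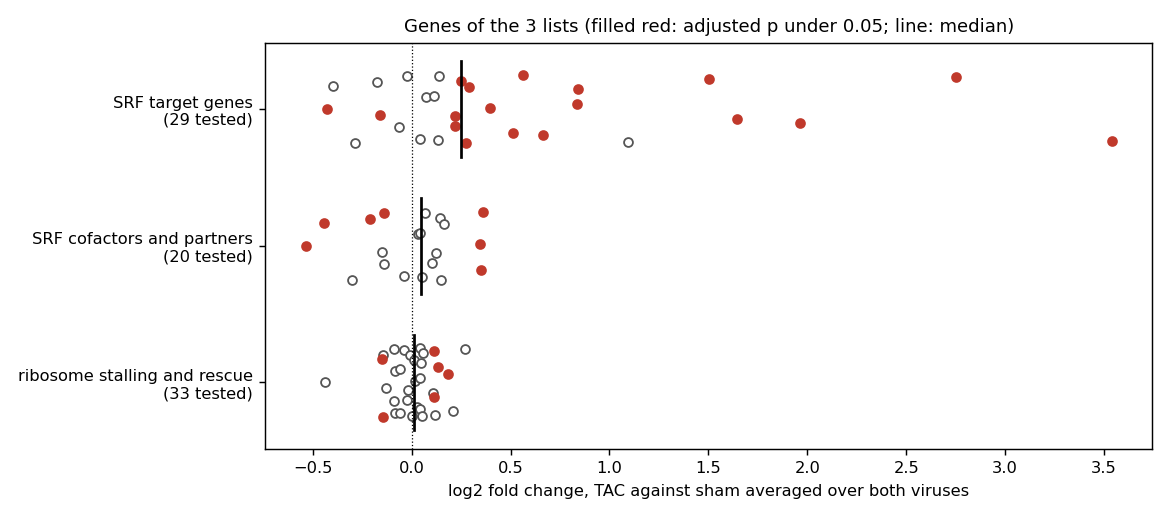
Each point is a gene of 1 of the 3 lists, placed by its log2 fold change for TAC against sham averaged over both viruses, with vertical position for display only. Filled red marks an adjusted p under 0.05 and the line is the median: 0.25 for the SRF targets, 0.046 for the cofactors and 0.010 for the stalling and rescue genes.

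Drg1, the GTPase that the study links to Cardinal, was higher after TAC under both viruses. In AAV9-GFP hearts it was at 23.8, 23.9, 22.2 and 22.05 CPM after sham surgery and at 27.3, 24.6, 28.9 and 26.3 CPM after TAC. In AAV9-Cardinal hearts it was at 24.5, 22.1, 23.1 and 24.3 CPM after sham surgery and at 26.9, 27.4, 26.1 and 26.5 CPM after TAC. All TAC hearts lay above all sham hearts of the same virus, as did 10.1% of tested genes in AAV9-GFP hearts and 6.51% in AAV9-Cardinal hearts, where 13.7% did not overlap in either direction (exact two-sided permutation p = 0.029 for each). The log2 fold change was 0.22 (standard error 0.055, edgeR adjusted p = 0.013) in AAV9-GFP hearts and 0.19 (0.056, edgeR adjusted p = 0.059) in AAV9-Cardinal hearts. The difference between these responses was -0.034 (95% interval from -0.20 to 0.14, edgeR adjusted p = 0.92). Averaged over both viruses, Drg1 was 1.15-fold higher after TAC (log2 fold change 0.20, standard error 0.039, edgeR adjusted p = 0.0017), and it was called whichever mouse was left out. The call in AAV9-GFP hearts was lost with only the mice compared (edgeR adjusted p = 0.054), and one was gained in AAV9-Cardinal hearts without AAV9-GFP TAC replicate 3 (0.043) or 4 (0.047). A share of 4.83% of its exon bases overlaps Sfi1 on the same strand.

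The transcript of Drg1 did not differ detectably between the viruses. With AAV9-Cardinal it was 0.031 higher on the log2 scale in sham hearts (95% interval from -0.091 to 0.15) and changed by -0.0028 in TAC hearts (-0.12 to 0.12). Averaged over both surgeries it was 0.014 (-0.071 to 0.0997), so that the interval lay within 0.1 on the log2 scale of no change. The mean level was 23.0 ± 1.00 CPM in AAV9-GFP sham, 26.8 ± 1.82 CPM in AAV9-GFP TAC, 23.5 ± 1.10 CPM in AAV9-Cardinal sham and 26.7 ± 0.551 CPM in AAV9-Cardinal TAC hearts (SD, n = 4 each). In order of level, the TAC groups came first and the sham groups last, and within each surgery the 2 viruses overlapped.

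Zc3h15, which encodes the stabilizing partner of DRG1, did not pass the test in any comparison. In AAV9-GFP hearts it was at 20.4, 21.5, 24.7 and 21.996 CPM after sham surgery and at 22.9, 24.7, 24.4 and 22.4 CPM after TAC. In AAV9-Cardinal hearts it was at 22.4, 21.7, 25.2 and 24.2 CPM after sham surgery and at 25.4, 23.9, 25.3 and 24.1 CPM after TAC. The groups overlapped in all 4 pairwise comparisons. The log2 fold change with TAC averaged over both viruses was 0.085 (95% interval from -0.016 to 0.18, edgeR adjusted p = 0.21), and that of AAV9-Cardinal against AAV9-GFP was 0.071 (-0.029 to 0.17, edgeR adjusted p = 0.78). When the counts of Gm5909, which were 52 to 94 per mouse, were added, an alternative chosen after seeing the data, the TAC change was 0.092 and the call was the same.

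Drg2, the paralog of Drg1, and its partner gene Rwdd1 overlapped between all groups compared. Drg2 was at 13.2, 15.03, 15.9 and 15.6 CPM in AAV9-GFP sham, 15.2, 15.8, 14.8 and 15.9 CPM in AAV9-GFP TAC, 12.7, 13.8, 13.8 and 15.9 CPM in AAV9-Cardinal sham, and 15.8, 14.6, 13.8 and 15.01 CPM in AAV9-Cardinal TAC hearts. Its log2 fold change was 0.062 with TAC (95% interval from -0.051 to 0.17) and -0.075 between the viruses (-0.19 to 0.037), each averaged over the other factor. Rwdd1 was at 27.4, 26.5, 29.0 and 28.8 CPM in AAV9-GFP sham, 26.3, 27.0, 30.8 and 26.7 CPM in AAV9-GFP TAC, 25.2, 27.9, 28.7 and 30.0 CPM in AAV9-Cardinal sham, and 26.5, 28.2, 27.8 and 26.3 CPM in AAV9-Cardinal TAC hearts. Its log2 fold change was -0.024 with TAC (-0.12 to 0.073) and -0.012 between the viruses (-0.11 to 0.085). With the counts of its 3 sequence-sharing copies added, the TAC change of Rwdd1 was -0.018, again without a call.

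The balance of each GTPase transcript to that of its partner was then compared as a difference of log2 CPM. Drg1 minus Zc3h15 was 0.22, 0.15, -0.16 and 0.0032 in AAV9-GFP sham hearts, 0.26, -0.0049, 0.24 and 0.23 in AAV9-GFP TAC hearts, 0.13, 0.024, -0.13 and 0.0038 in AAV9-Cardinal sham hearts, and 0.083, 0.20, 0.044 and 0.14 in AAV9-Cardinal TAC hearts. The groups overlapped throughout. The means after TAC and sham surgery differed by 0.13 in AAV9-GFP hearts (exact permutation p = 0.23) and by 0.11 in AAV9-Cardinal hearts (exact permutation p = 0.14), neither past the threshold, and the viruses differed by -0.047 and -0.066 (exact permutation p = 0.69 and 0.37). Drg2 minus Rwdd1 and Drg1 minus Drg2 did not pass the test in any of the 4 pairwise comparisons either, with differences from -0.089 to 0.17 and exact permutation p of 0.17 or more.

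**Figure D4:**
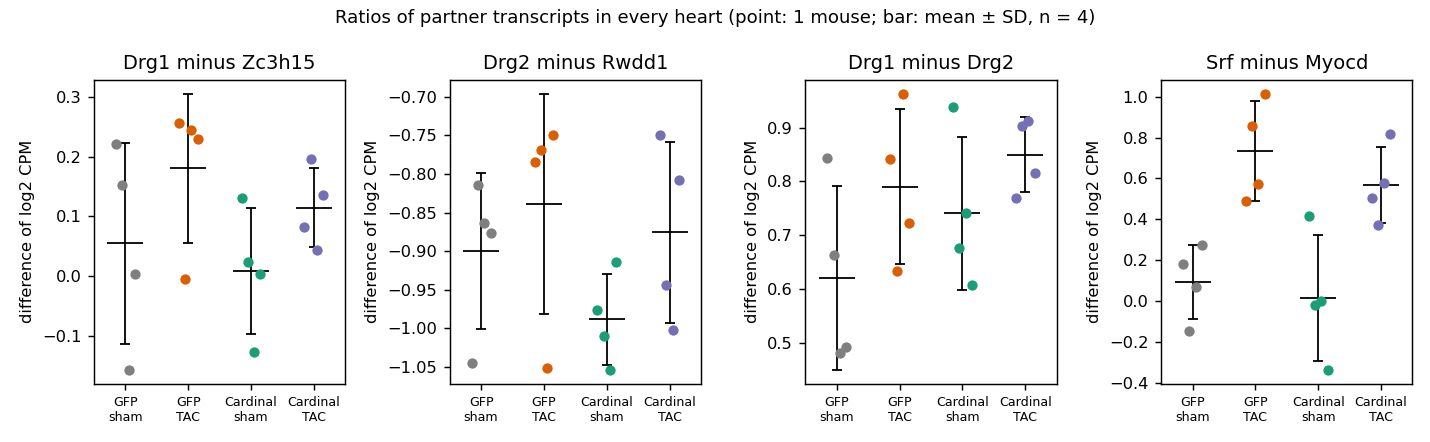
Panels plot 4 ratios of partner transcripts as differences of log2 CPM for each mouse (points) with the mean and SD of each group (n = 4), on axes that differ between panels and do not start at 0. The Srf to Myocd ratio is higher in AAV9-GFP TAC than in AAV9-GFP sham hearts without overlap, and the groups of the 3 ratios of GTPases and partners overlap.

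**Figure D5:**
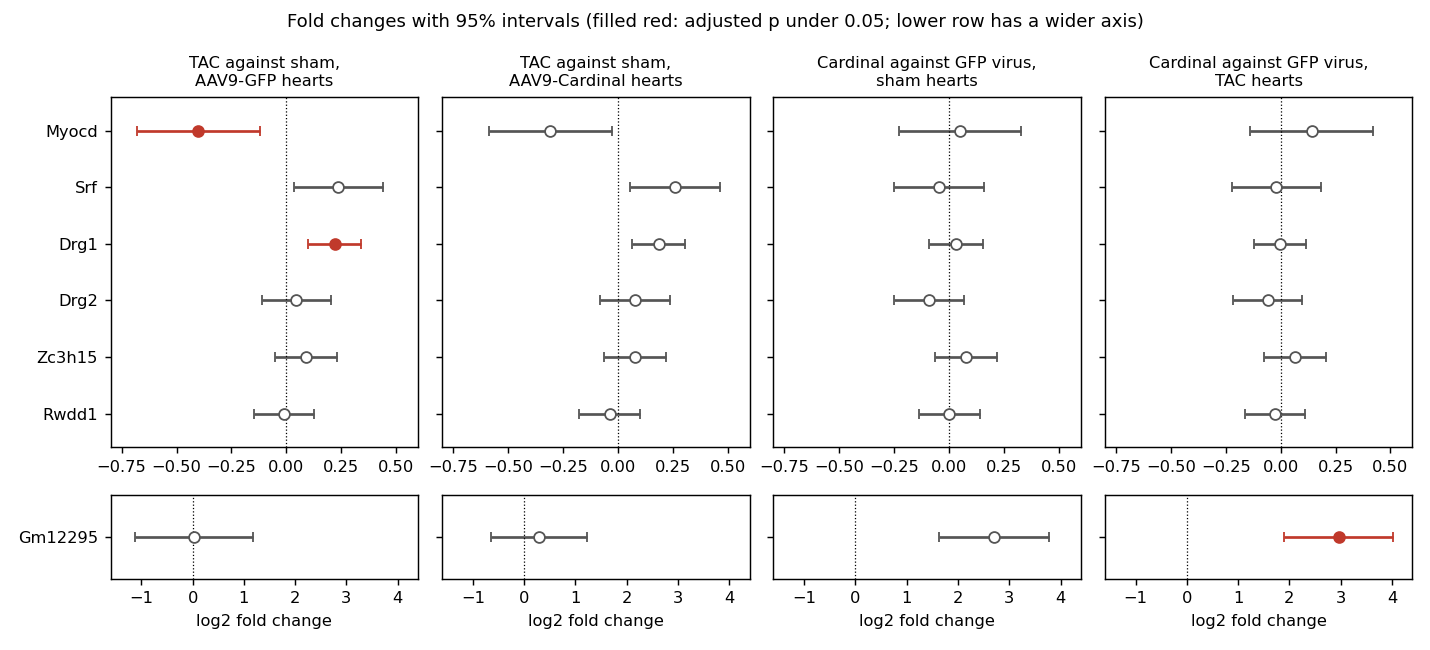
Log2 fold changes of the 7 genes are plotted with 95% intervals, not adjusted for the number of genes, in the 4 pairwise comparisons, with Gm12295 on a wider axis below. Filled red marks an adjusted p under 0.05: Myocd and Drg1 for TAC in AAV9-GFP hearts and Gm12295 for the viruses in TAC hearts.

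Counted over the 7 members, TAC gave 1 higher (Drg1) and 1 lower (Myocd) in AAV9-GFP hearts, where 17.4% of all tested genes were called, 8.49% higher and 8.92% lower. It gave 0 of 7 in AAV9-Cardinal hearts (6.48% of all genes, 3.1% higher and 3.38% lower) at the adjusted threshold of edgeR's test. DESeq2 also called 0 members there. In edgeR's test 3 members, Drg1, Srf and Myocd, had an unadjusted p under 0.05, among 3682 of the 16857 tested genes. Averaged over both viruses there were 2 higher (Drg1 and Srf) and 1 lower (Myocd), with 23.1% of all genes called, 11.3% higher and 11.8% lower. The median log2 fold change of the 7 members with TAC averaged over both viruses was 0.085, and it was 0.014 between the viruses. The TAC response did not differ between the viruses for any member at the threshold, with 0.0119% of all genes called. No member had an unadjusted p under 0.05 for this difference in edgeR's test, against 1722 of the 16857 tested genes. A call in AAV9-GFP hearts and none in AAV9-Cardinal hearts therefore does not show that Drg1 or Myocd responded differently. The 4 pairwise comparisons share groups of mice and are not independent of each other.

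The other genes of ribosome stalling and rescue were read from a list of 36 names, of which 33 were tested. With TAC averaged over both viruses 4 were higher and 2 lower, and the median log2 fold change was 0.010. These 6 are 18.2% of the list, below the 23.1% called among all tested genes. Abce1, which encodes the factor that splits ribosomes for recycling, rose by 0.18 (standard error 0.036) from 51.1 ± 2.53 to 58.2 ± 1.62 CPM in AAV9-GFP hearts and from 52.1 ± 2.38 to 58.7 ± 3.27 CPM in AAV9-Cardinal hearts (SD, n = 4 each). Etf1, the gene of the release factor eRF1, rose by 0.14 (0.038), and Rack1, a scaffold of the small ribosomal subunit, by 0.11 (0.035). Gtpbp1, a GTPase linked to stalled ribosomes, fell by 0.15 (0.041), all as log2 fold changes. In AAV9-GFP hearts alone 3 were higher and 1 lower (12.1% of the list, with 17.4% of all tested genes called), and in AAV9-Cardinal hearts none was called (6.48% of all tested genes). None of the 33 passed the test between the viruses in sham hearts, in TAC hearts or averaged over both. Of all tested genes, only 0.0119%, 0.101% and 0.0119% did.

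Within a virus, the level of Gm12295 was set against that of each other member over 8 mice, as deviations from the group means. With the pairs Drg1 and Zc3h15, Drg2 and Rwdd1, and Srf and Myocd over all 16 mice, this gave 15 relations, and 0 passed the adjusted threshold. The strongest was with Srf in AAV9-GFP mice, where more Gm12295 went with less Srf (Pearson r = -0.70, exact permutation p = 0.071, adjusted 0.72; Spearman rho = -0.79, exact permutation p = 0.043, adjusted 0.65). Without the 2 mice farthest from the median of Gm12295, r was -0.41. In AAV9-Cardinal mice the same relation had r = 0.0073 (exact permutation p = 0.97) and rho = 0.26 (exact permutation p = 0.58). For Gm12295 and Drg1, r was 0.12 in AAV9-GFP mice (exact permutation p = 0.83) and 0.16 in AAV9-Cardinal mice (exact permutation p = 0.60), and rho was 0.17 (exact permutation p = 0.74) and 0.21 (exact permutation p = 0.51). For Drg1 and Zc3h15 over 16 mice, r was -0.20 (permutation p = 0.50) and rho -0.23 (permutation p = 0.49).

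Finally, the genes whose log2 CPM followed each member most closely over the 16 mice were looked up among 14242 named genes. These correlations describe mice that share groups, and no test was made. For Drg1 they were Dync1li2, Hagh and Ptdss1 (Pearson r of 0.88, 0.86 and 0.85), for Myocd Hivep2, Rbpms and Aldh5a1 (0.89, 0.88 and 0.86), and for Srf Nppb, Spsb4 and Stx2 (0.91, 0.91 and 0.90). For Gm12295 they were Akap11, Yme1l1 and Coq3, with lower values of 0.79, 0.77 and 0.77. The AAV9-Cardinal and AAV9-GFP mice form separate clusters in Gm12295, so these values mix the difference between the viruses with that between mice. For Zc3h15 they were Tes3-ps, Myd88 and Coa5 (0.86, 0.82 and 0.81), for Drg2 Rsl1d1, Ppp4c and Zfp954 (0.81, 0.79 and 0.78), and for Rwdd1 Eprs, Rnf144b and Adipor2 (0.81, 0.80 and 0.79). No member was among the closest 3 of another.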

How the data were processed

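The authors deposited raw read counts for 55573 Ensembl genes in 16 mice from single-end 50-base reads. The submitters' processing notes name FastQC, HISAT2 2.1.0, edgeR 3.26.1 and GRCm38. The counting program, annotation, use of strand and treatment of reads with several matches are not given in the sources used here. Genes were named with GENCODE M21. Counts were fitted in edgeR 4.0.16 (R 4.3.3) with TMM normalization, edgeR's expression filter (16857 genes) and a quasi-likelihood model of all 16 mice, with Benjamini-Hochberg adjustment over all tested genes at 0.05. Log2 CPM used a prior count of 2. Standard errors came from the fit. A level of 3 counts corresponds to 0.137 to 0.182 CPM (counting error only). Shared 50-base stretches were counted among GENCODE transcripts. Members of the lists, markers and the genes followed were chosen with earlier results of these data known. Named were all 7 members, their 3 closest genes, up to 4 genes per list with the smallest p for averaged TAC among those called, and Nppa, Acta1, Myh7, Tnnt2 and Ryr2. Myh6, Ttn, Myh4, Tnnc2 and the remaining single genes were picked with their values in view. Same-group mice differed beyond sampling noise (chi-square per degree of freedom 5.49 to 16.4), and p-values measure the spread between these mice. The fit was tested on simulated data. Alternatives were DESeq2 1.42.0, other normalization and filters, only the mice compared, a robust spread, mitochondrial genes left out, mouse number as a block, another prior count, each mouse left out, and (added later) summed copies.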

Additional observations from a re-analysis of the deposited data

Results flagged for a closer look

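Among 48 groups of 4 mice, for the 7 members and the 5 ratios, 5 had a mouse beyond Dixon's 95% critical value of 0.829, and chance flags about 1 group in 20. AAV9-Cardinal TAC replicate 1 had Gm12295 at 93.9 CPM, with the other mice at 18.3 to 20.6 CPM, and consequently Gm12295 minus Myocd at 1.06 on the log2 scale, with the others at -1.32 to -0.96. AAV9-GFP TAC replicate 4 had Rwdd1 at 30.8 CPM, with the others at 26.3 to 27.0 CPM, and Drg2 minus Rwdd1 at -1.05, with the others at -0.78 to -0.75. AAV9-GFP TAC replicate 3 had Drg1 minus Zc3h15 at -0.0049, with the others at 0.23 to 0.26. No member passed edgeR's test of a difference in TAC response between the viruses.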

How the results depend on the processing

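Mice of the same number correlated only weakly (correlation of deviations -0.040 to 0.21 over 16 same-number pairs, median 0.054, above 0.1 in 4). The median was -0.013 over the 80 other pairs, and 5 of 13 mice correlated best with their own number. With mouse number as a replicate block, the members called were 0 for TAC in AAV9-GFP hearts, 1 for TAC averaged and 0 for the viruses in TAC hearts, in place of 2, 3 and 1. The averaged TAC calls of Srf (0.21, edgeR adjusted p = 0.17) and Myocd (-0.23, edgeR adjusted p = 0.20) were lost under this block, and that of Drg1 held (edgeR adjusted p = 0.039). Numbers 5, 6 and 7 each belonged to a single TAC mouse, which its own block term fits fully. Only 13 of the 16 mice therefore informed the blocked comparisons. The part of this loss of mice in the lost calls was not tested. Without a filter on low counts (30343 genes) the counts were 1 for TAC in AAV9-GFP hearts and 0 for the viruses in TAC hearts. With only the mice compared they were 1 and 0, and 1 for the viruses in sham hearts. Over all tested genes, a difference in TAC response was called for 2 genes in the main fit, 137 with DESeq2 and 79 without AAV9-Cardinal TAC replicate 1. DESeq2 gave no adjusted p for Gm12295, so its counts for the viruses in TAC hearts and averaged were not compared. Among comparisons of single values with these alternatives, 421 kept their direction and side of the threshold, 9 lost the call, 1 gained it and 11 changed direction. The direction changed only in values near 0: Gm12295 with TAC in AAV9-GFP hearts (-0.017, block), Rwdd1 between the viruses in sham hearts (-0.0018, DESeq2; -0.0055, no filter; -0.0016, only the mice compared; -0.000262, block), Drg1 between the viruses in TAC hearts (0.00111, DESeq2; 0.0038, no filter; 0.0010, without mitochondrial genes), Drg2 there (0.013, block) and the difference in TAC response of Zc3h15 (0.000426, no filter; 0.0084, block). The cause was not tested.

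Leaving out single mice, the members called ranged from 1 to 2 for TAC in AAV9-GFP hearts, and from 0 to 1 for TAC in AAV9-Cardinal hearts, for the viruses in sham hearts and for the viruses in TAC hearts. Log2 changes that took both signs were, for TAC in AAV9-GFP hearts, Gm12295 (-0.22 to 0.16), Drg2 (-0.0089 to 0.075) and Rwdd1 (-0.063 to 0.018). For TAC in AAV9-Cardinal hearts and averaged, Gm12295 ranged from -0.67 to 0.53 and from -0.32 to 0.28. Between the viruses in sham hearts they were Myocd (-0.035 to 0.17), Srf (-0.11 to 0.058) and Rwdd1 (-0.035 to 0.048), in TAC hearts Srf (-0.071 to 0.017), Drg1 (-0.039 to 0.039) and Rwdd1 (-0.049 to 0.032), and averaged Srf (-0.064 to 0.019), Drg1 (-0.0026 to 0.036) and Rwdd1 (-0.030 to 0.017). For the difference in TAC response they were Gm12295 (-0.71 to 0.52), Myocd (-0.025 to 0.18), Srf (-0.078 to 0.087), Drg1 (-0.072 to 0.0056), Drg2 (-0.012 to 0.094), Zc3h15 (-0.069 to 0.028) and Rwdd1 (-0.073 to 0.029). Among ratios they were Drg1 minus Zc3h15 between the viruses in sham hearts (-0.12 to 0.0084), Srf minus Myocd there (-0.21 to 0.039), Gm12295 minus Myocd with TAC in AAV9-Cardinal hearts (-0.34 to 0.47) and Drg2 minus Rwdd1 between the viruses in TAC hearts (-0.11 to 0.0051).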
